A study of Homo sapiens with 18 samples.

Results

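The numbered zinc finger genes at the end of the long arm of chromosome 19, in band 19q13.43, are described here as 1 group in 2 uveal melanoma cell lines kept with an inhibitor of the histone methyltransferases EHMT1 and EHMT2. The group holds ZNF274 and its numbered neighbours, 50 of the 26475 gene symbols measured. Its members were chosen by name and place and not by a measured value, though with earlier results of these data known. In the GENCODE annotation (release 29, build GRCh38) they run over 2105 kb, from the start of ZNF582 at base 56375846 to the end of ZNF446 at base 58481230. Mel92.1 and MP41, cell lines grown from human uveal melanoma, were each kept for 48 h with DMSO, the solvent control, or with 1 μM of UNC0642 or of A366. RNA was sequenced in 3 biological replicates of each of the 6 groups, 18 libraries in all. Both compounds inhibit EHMT2 (also called G9a) and EHMT1, and nothing was deleted or transferred into the cells.

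Zinc finger genes of this kind encode proteins with a row of C2H2 fingers that read DNA, and most carry a KRAB box that calls in the corepressor TRIM28. TRIM28 in turn brings SETDB1, a methyltransferase that places trimethyl marks on lysine 9 of histone H3, and these genes stand in large clusters on chromosome 19 that grew by repeated duplication. ZNF274 is known for binding the finger-coding 3′ ends of zinc finger genes, many of them on this chromosome, and for the SETDB1-dependent mark laid down there. EHMT1 and EHMT2 place the mono- and dimethyl marks on the same lysine.

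The sequences below were chosen because the results turn on these genes or because the letters recur among the members. Each of the first 5 lines is 200 bases of a promoter, 170 before and 30 after the RefSeq start on build GRCh38.p14, read 5′ to 3′ on the strand of the gene. Capitals mark ACTTCCGG, the reverse complement of CCGGAAGT, a sequence read by ETS factors. The lines lie at chr19:58182891-58183090 (plus strand) for ZNF274, chr19:57599715-57599914 (plus) for ZNF530, chr19:57746645-57746844 (plus) for ZNF776, chr19:57727595-57727794 (minus) for ZNF671 and chr19:58228744-58228943 (plus) for ZNF544.
ZNF274: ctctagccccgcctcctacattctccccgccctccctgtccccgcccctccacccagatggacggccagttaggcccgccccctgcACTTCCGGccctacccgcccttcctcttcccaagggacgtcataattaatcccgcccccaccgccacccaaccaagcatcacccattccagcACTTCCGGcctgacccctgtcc
ZNF530: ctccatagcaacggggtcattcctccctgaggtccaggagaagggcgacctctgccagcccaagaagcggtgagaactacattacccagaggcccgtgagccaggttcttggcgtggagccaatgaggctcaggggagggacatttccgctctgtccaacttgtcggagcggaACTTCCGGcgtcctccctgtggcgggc
ZNF776: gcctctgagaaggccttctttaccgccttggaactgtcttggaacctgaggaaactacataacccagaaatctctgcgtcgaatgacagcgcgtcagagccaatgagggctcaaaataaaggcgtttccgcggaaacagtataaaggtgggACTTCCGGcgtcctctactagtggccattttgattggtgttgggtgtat
ZNF671: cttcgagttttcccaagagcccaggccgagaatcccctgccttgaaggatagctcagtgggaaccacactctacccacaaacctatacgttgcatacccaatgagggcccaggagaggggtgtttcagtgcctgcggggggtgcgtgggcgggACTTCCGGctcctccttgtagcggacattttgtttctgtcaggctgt
ZNF544: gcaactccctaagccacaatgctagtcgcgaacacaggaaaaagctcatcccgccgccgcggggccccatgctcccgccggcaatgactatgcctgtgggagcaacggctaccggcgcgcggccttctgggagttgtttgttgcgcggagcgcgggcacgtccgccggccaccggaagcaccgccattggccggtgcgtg
ZNF274 had the letters at 2 places, ZNF530, ZNF776 and ZNF671 at 1 place each, and ZNF544 at none of the bases shown, which instead held 24 CG pairs. The last line is 98 bases of the coding part of ZNF544, bases 1184 to 1281 of its longest coding transcript in GENCODE. Capitals mark 2 copies of the conserved linker between fingers, searched with any letter at the third base of each codon, with 84 bases from the start of the first copy to the start of the second.
ZNF544 linker: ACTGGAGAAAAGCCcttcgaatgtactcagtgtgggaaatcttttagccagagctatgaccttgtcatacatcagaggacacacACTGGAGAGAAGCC
The 84 bases are the length of 1 finger with its linker, the unit that is repeated in these genes.

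Of the 50 members, 46 had a promoter in the RefSeq table (ZNF471, ZNF417, ZNF211 and ZNF552 did not). CCGGAAGT or its reverse complement stood in 24 of these 46 promoters of 300 bases (52.2%), against 51 of 377 promoters of numbered ZNF genes elsewhere (13.5%) and 4.44% of all 27305 promoters. The 25 matches lay between 150 bases before and 8 bases after the start, 19 of them within 50 bases of it, and 23 read ACTTCCGG on the gene's own strand. ATTGG or CCAAT stood in 29 member promoters (63.0%, against 46.4% of those of numbered ZNF genes elsewhere and 35.7% of all) and could overlap the other motifs. TATAAA stood in 1, that of ZNF776 (2.17%, against 3.18% elsewhere and 12.0% of all), and GGGGCGGGG in 3, those of ZNF667, ZNF274 and ZNF584 (6.52%, against 24.7% elsewhere and 16.0% of all), both strands being searched. Member promoters held 11 to 42 CG pairs, with a median of 22.5 against 14 over all promoters. In the transcript with the longest coding part, the linker stood in frame in 36 of the 50 members, 178 copies in all, of which 99 were followed by another copy 84 bases on. ZNF135 held the most, 13 copies, and ZNF274 and ZNF530 held none in these exact letters. A second search, in any frame along the longest protein-coding transcript of each gene, which for some genes is another transcript, found the letters in 33 of the 50 members (66.0%), in 75.8% of the numbered ZNF genes elsewhere and in 2.96% of all protein-coding genes.

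The libraries held totals of 23601156 to 62941462 counts (median 41955693), and 3.31% to 32.8% of them fell on 4 ribosomal RNA genes. The library with the most ribosomal RNA, Mel92.1 UNC0642 replicate 1, also had the lowest total and held 8 members at 0, where the other libraries held 0 to 3. The melanocyte genes PMEL (4400 to 11000 CPM, counts scaled to a common library total) and TYRP1 (5380 to 12300 CPM) were high in every library, as were MITF, SOX10, MLANA and TYR (249 CPM or more), but DCT, the other of the 7 melanocyte markers, ran from 1.16 to 524 CPM and was lowest in Mel92.1. By contrast PTPRC, CD3E, PECAM1, VWF, EPCAM, KRT5 and DCN, which mark other cell types, had medians under 1 CPM. CD68 (25.9 to 182 CPM) and LUM (14.8 to 31.7 CPM) were above that level. The study's own per-replicate table lists 14 libraries under their label and 4 under the other cell line, namely those labelled A366 replicates 2 and 3 of either line. Over 13763 genes these 4 had a Spearman correlation of at least 0.969 with the mean DMSO library of the line in that table and of at most 0.862 with that of the labelled line. They are placed here as in that table, so that "A366 in MP41" means the library labelled MP41 A366 replicate 1 together with replicates 2 and 3 labelled Mel92.1 A366, and the A366 results are also given without the 4 libraries. Without them 1 A366 library is left in each line, so that every such value rests on it, the spread comes from the other groups and the lone library is assumed to vary like them.

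A difference was called where edgeR's quasi-likelihood test gave a Benjamini-Hochberg adjusted p under 0.05 over all genes that passed the filter on low counts. Levels are CPM scaled by TMM factors, each group has 3 libraries, and changes are log2 fold changes with their standard error (SE). In bulk RNA, fewer cells with a transcript and less transcript per cell cannot be told apart. Members with close copies share reads: 13 of the 50, among them ZNF587, ZNF587B, ZNF417, ZNF814, ZNF552, ZNF419, ZNF773, ZNF324, ZNF324B and ZNF497, had estimated counts that were not whole (0.005 or more from a whole number, in values given to the second decimal) in over 50% of the libraries, and their single values are uncertain. The counts of 27 members, ZNF274 and ZNF776 among them, were whole in every library. In addition 22 members overlap another gene on the same strand and 24 one on the other strand.

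ZNF274, a gene on the plus strand at chr19:58183029-58213562, was lower with either inhibitor in either line, and in each of the 4 comparisons every inhibitor library lay below every DMSO library. In Mel92.1 its level was 17.8, 17.6 and 16.4 CPM with DMSO, 9.60, 12.6 and 12.8 CPM with UNC0642, and 11.2, 11.1 and 10.5 CPM with A366. In MP41 it was 14.0, 15.3 and 13.9 CPM with DMSO, 10.9, 10.9 and 11.2 CPM with UNC0642, and 10.3, 10.8 and 11.4 CPM with A366. The 4 inhibitor groups thus lay within 9.60 to 12.8 CPM, while the control levels of the lines lay apart, with Mel92.1 higher by 0.26 (SE 0.11, adjusted p = 0.0379 by edgeR). The change passed the test for A366 in MP41 at −0.44 (SE 0.09, adjusted p = 0.00226 by edgeR), and without the 4 libraries it was −0.53 (adjusted p = 0.00708). In the other 3 comparisons the log2 difference of ZNF274 was −0.56 (SE 0.13, adjusted p = 0.123) for UNC0642 in Mel92.1, −0.66 (SE 0.13, adjusted p = 0.113) for A366 in Mel92.1 and −0.39 (SE 0.09, adjusted p = 0.146) for UNC0642 in MP41, all by edgeR, which missed the threshold. DESeq2 called ZNF274 lower in each of these 3. The 2 inhibitors were not told apart on ZNF274: A366 minus UNC0642 was −0.09 in Mel92.1 (95% interval −0.38 to 0.20) and −0.05 in MP41 (−0.24 to 0.15).

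**Figure D1:**
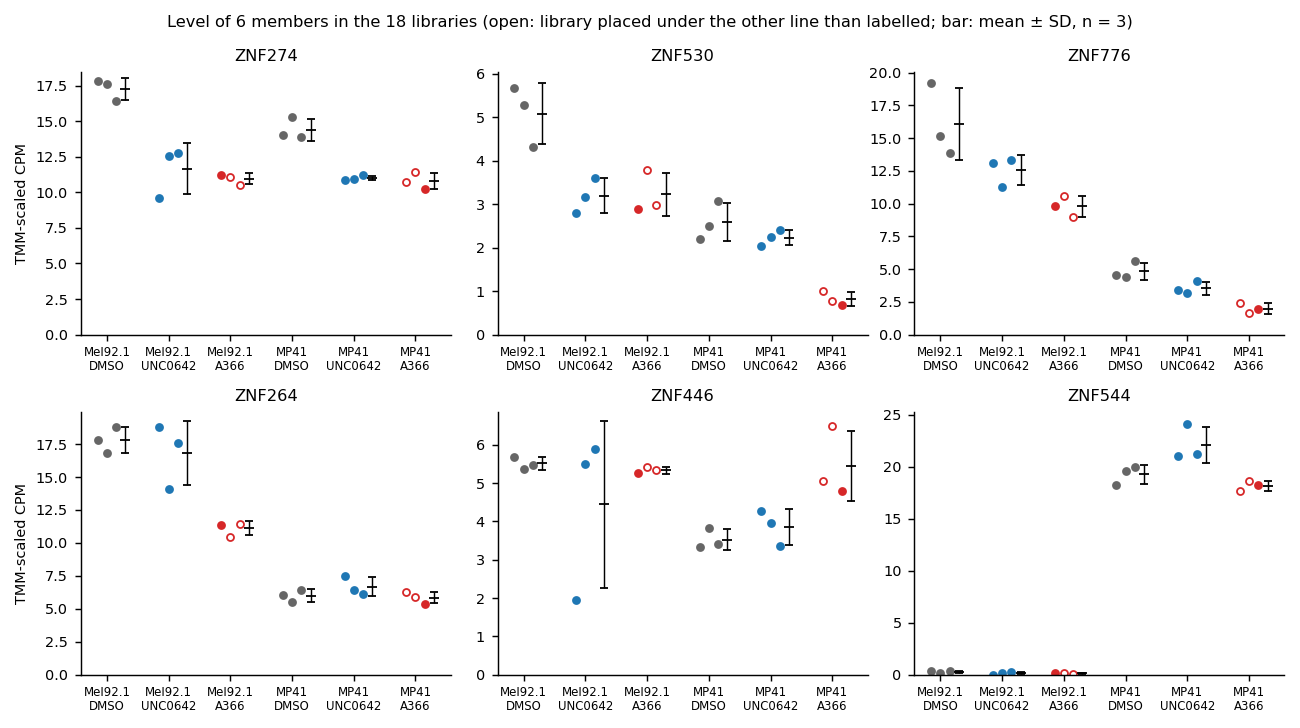
Level (CPM, linear axis) of ZNF274, ZNF530, ZNF776, ZNF264, ZNF446 and ZNF544 in each of the 18 libraries by group, with bars at the mean ± SD of 3 libraries and open points for the 4 libraries placed against their label. ZNF274 sits between 9.60 and 12.8 CPM in all inhibitor libraries, ZNF264 is low with A366 in Mel92.1, and ZNF544 is near 0 in Mel92.1.

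A366 in MP41 gave the most calls against DMSO, among the members as among all genes. Of 46 members tested, 22 fell (23.5% of all genes tested were called lower) and 2, ZNF446 and ZNF497, rose (22.5% of all genes were called higher). The share that fell was 47.8% of the members tested and 46.7% of the numbered ZNF genes elsewhere (201 of 430). The members' log2 changes ran from −1.68 to 0.75 with a median of −0.52, against 0.02 over all genes, and 38 of the 46 were below 0. In 27 members every A366 library was below every DMSO library, as in 26.7% of all genes. The 22 that fell were ZNF530, ZNF776, ZNF772, ZNF551, ZNF417, ZNF550, ZNF470, ZNF583, ZNF134, ZNF586, ZNF256, ZNF419, ZNF549, ZNF416, ZNF17, ZNF814, ZNF304, ZNF548, ZNF8, ZNF274, ZNF329 and ZNF587, in order of size. The call of ZNF814 (−0.60, adjusted p = 0.0348 by edgeR) was lost without MP41 DMSO replicate 1 or 2 or the library labelled Mel92.1 A366 replicate 2 or 3, with differences of −0.55 to −0.53, and without the filter, with the replicate number as a block, with an offset for GC and length, by limma voom and without the 4 libraries. Without the 4 libraries, which leaves 1 A366 library, 11 of 48 members tested were called lower (19.8% of all genes) and 0 higher. These were ZNF134, ZNF274, ZNF304, ZNF417, ZNF470, ZNF530, ZNF549, ZNF550, ZNF551, ZNF587 and ZNF776. Without the library labelled Mel92.1 A366 replicate 3 alone, 15 members were called (33.5% of all genes).

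ZNF530 and ZNF776 showed the pattern at its plainest. ZNF530, at chr19:57599885-57612722, had 2.21, 2.49 and 3.06 CPM with DMSO, 2.05, 2.25 and 2.40 CPM with UNC0642 and 0.675, 1.01 and 0.775 CPM with A366 in MP41. All A366 libraries were under all others, and the fall was −1.68 (SE 0.24, adjusted p = 0.000467 by edgeR), or −1.98 without the 4 libraries (adjusted p = 0.0013). ZNF776, at chr19:57746796-57758159, had 4.54, 4.41 and 5.58 CPM with DMSO, 3.40, 3.14 and 4.09 CPM with UNC0642 and 1.96, 2.39 and 1.62 CPM with A366. Its 3 groups were ordered with no overlap, and the fall with A366 was −1.31 (SE 0.19, adjusted p = 0.000577 by edgeR).

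ZNF551, at chr19:57681969-57717301, had 3.76, 4.90 and 4.69 CPM with DMSO and 2.01, 2.01 and 1.94 CPM with A366 in MP41, a fall of −1.19 (SE 0.18, adjusted p = 0.000627 by edgeR). ZNF134 fell from 6.19, 6.16 and 7.15 CPM to 3.25, 4.05 and 3.25 CPM, a log2 change of −0.91 (adjusted p = 0.000901 by edgeR). ZNF550 fell from 2.83, 3.46 and 3.19 CPM to 1.45, 1.59 and 1.31 CPM, a log2 change of −1.14 (adjusted p = 0.000905 by edgeR). No A366 library of these genes reached a DMSO library. ZNF772 fell from 1.73, 2.25 and 1.85 CPM to 1.00, 0.644 and 0.754 CPM, a log2 change of −1.30 (adjusted p = 0.00178 by edgeR), and this call was lost without the 4 libraries (−0.99, adjusted p = 0.0602). ZNF417, known with its close copy ZNF587 for binding endogenous retroviruses of the HERV-K family, fell from 4.28, 3.53 and 4.26 CPM to 1.47, 2.68 and 1.31 CPM, a log2 change of −1.17 (adjusted p = 0.00266 by edgeR), with reads shared between the copies. ZNF587 itself fell too, with a log2 change of −0.37 (adjusted p = 0.0214 by edgeR). That call was lost without any 1 of 4 libraries, namely MP41 DMSO replicates 1 and 3, MP41 A366 replicate 1 and the library labelled Mel92.1 A366 replicate 3, and with an offset for GC and length, where the difference was −0.08.

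The 2 members that rose lie at or near the telomeric end. ZNF446, a SCAN zinc finger gene at chr19:58474017-58481230, had 3.33, 3.83 and 3.41 CPM with DMSO and 4.79, 5.07 and 6.48 CPM with A366, a rise of 0.60 (SE 0.16, adjusted p = 0.0105 by edgeR). ZNF497 had 1.23, 0.999 and 1.20 CPM with DMSO and 2.27, 1.65 and 1.92 CPM with A366, a rise of 0.74 (SE 0.28, adjusted p = 0.0467 by edgeR). The groups did not overlap in either gene, yet both calls were lost without the 4 libraries, where the 1 A366 library left gave 0.40 for ZNF446 (SE 0.23, adjusted p = 0.209 by edgeR) and 0.94 for ZNF497 (SE 0.44, adjusted p = 0.118 by edgeR). Both were also lost without the library labelled Mel92.1 A366 replicate 3 (0.454 and 0.745). The call of ZNF497, whose counts were not whole in 94.4% of the libraries, was lost without MP41 A366 replicate 1 or any 1 of the 3 MP41 DMSO libraries too, with differences of 0.62 to 0.80 over these 5 fits, and without the filter, with the replicate block and with an offset for GC and length.

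**Figure D2:**
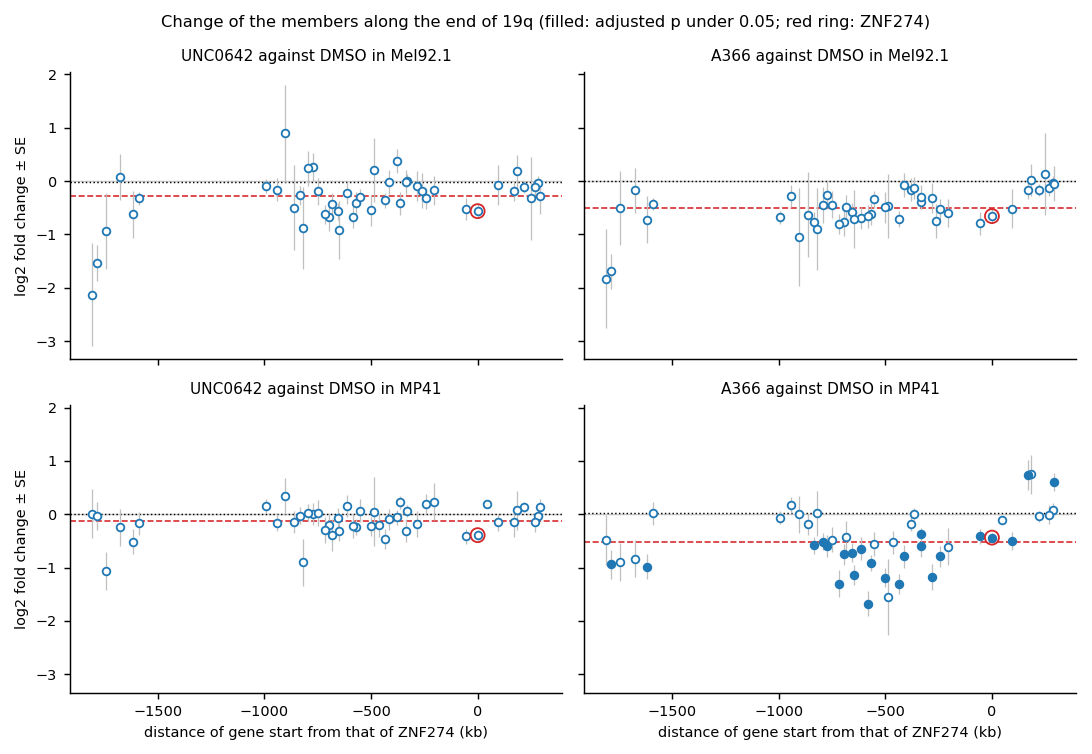
Log2 fold change against DMSO (point, with bars of 1 SE) of each tested member by distance of its start from that of ZNF274 (kb), in 4 panels for each inhibitor and line, with filled points past the threshold, a dotted line at the median of all genes and a dashed line at the members' median. Filled points appear with A366 in MP41 and lie all along the stretch, 22 below 0 and 2 above, while the members' median is −0.50 with A366 in Mel92.1 with no filled point.

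In Mel92.1, 0 of 46 members tested were called with A366 by edgeR (0.213% of all genes were called). Even so 44 of the 46 had a log2 difference below 0, with a median of −0.50 against −0.0052 over all genes, of which 51.7% were below 0. At an unadjusted p under 0.05, 18 members were lower (1.85% of all genes) and 0 higher, and in 33 members every A366 library was below every DMSO library (7.23% of all genes), with 0 members the other way. The count of calls depended on the tool. DESeq2 called 7 members lower (1.17% of all genes called), ZNF264, ZNF274, ZNF304, ZNF329, ZNF583, ZNF772 and ZNF776, and limma voom with sample quality weights called 30 (21.2% of all genes). Without Mel92.1 UNC0642 replicate 1, edgeR called 7 (0.995% of all genes), ZNF264, ZNF274, ZNF304, ZNF329, ZNF550, ZNF583 and ZNF772. That library, rich in ribosomal RNA, is in neither group compared and enters the fit through the filter, the scaling and the spread. Without the 4 libraries, which leaves 1 A366 library, the members' median difference was −0.50.

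ZNF264, at chr19:57191500-57222846, stood out in that line. It had 17.8, 16.8 and 18.8 CPM with DMSO, 18.8, 14.1 and 17.6 CPM with UNC0642 and 11.4, 10.5 and 11.5 CPM with A366. The A366 libraries lay below all others, at −0.68 against DMSO (SE 0.13, adjusted p = 0.0856 by edgeR) and −0.59 against UNC0642 (adjusted p = 0.146). In MP41 its level was 6.01, 5.53 and 6.45 CPM with DMSO and 5.38, 6.26 and 5.90 CPM with A366, a difference of −0.06 (95% interval −0.35 to 0.22). Under an offset for GC and length, edgeR did call ZNF264 for A366 in MP41 (35.5% of all genes called). ZNF583 had 3.21, 2.45 and 3.14 CPM with DMSO, 1.09, 0.972 and 0.975 CPM with UNC0642 and 1.12, 0.981 and 0.629 CPM with A366 in Mel92.1. Every inhibitor library was thus under every DMSO library, with log2 differences of −1.54 for UNC0642 (SE 0.33, adjusted p = 0.0989) and −1.69 for A366 (SE 0.33, adjusted p = 0.112), both by edgeR. ZNF304, a KRAB gene known for recruiting the TRIM28 complex to silenced genes in colorectal cancer, had 13.4, 12.8 and 12.9 CPM with DMSO, 14.5, 9.11 and 9.21 CPM with UNC0642 and 6.86, 8.02 and 8.08 CPM with A366. With A366 its libraries were all below those of both other groups, at −0.77 against DMSO (SE 0.18, adjusted p = 0.252 by edgeR).

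UNC0642 in Mel92.1 gave 0 calls by edgeR among 46 members (0.688% of all genes called). Of these 38 had a difference below 0, with a median of −0.28 against −0.022 over all genes, and 54.4% of all genes were below 0. At an unadjusted p under 0.05, 9 members were lower (4.07% of all genes) and 0 higher, and in 17 no replicates overlapped and UNC0642 was lower (8.03% of all genes). DESeq2 called 3 lower (2.68% of all genes), ZNF274, ZNF583 and ZNF772, and voom called these and ZNF304 (2.84%). Without replicate 1 edgeR called 2, ZNF274 and ZNF583 (1.24% of all genes), and the members' median was −0.34. Replicate 1 departed from the other 2 UNC0642 libraries in genes chosen here after their values were seen. ZNF548 had 14.8 CPM there and 4.73 and 6.96 CPM in the others, ZNF550 had 0.547 CPM against 5.68 and 6.15 CPM, and ZNF667 had 0.0608 CPM against 4.99 and 6.32 CPM. The part of its ribosomal RNA in these values was not tested.

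UNC0642 in MP41 gave the smallest differences. By edgeR 0 of 46 members were called (0.241% of all genes), 29 had a difference below 0 and the median was −0.12, against 0.0011 over all genes. At an unadjusted p under 0.05, 5 were lower (4.15% of all genes), ZNF274, ZNF329, ZNF470, ZNF667 and ZNF776, and 1 was higher, ZNF544. In either direction 1316 of all 14956 genes passed. Replicates did not overlap in 6 lower members (9.29% of all genes) and 2 higher ones, a direction not counted over all genes. DESeq2 called 1, ZNF274 (1.2% of all genes), and voom 0 (1.03% of all genes).

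**Figure D3:**
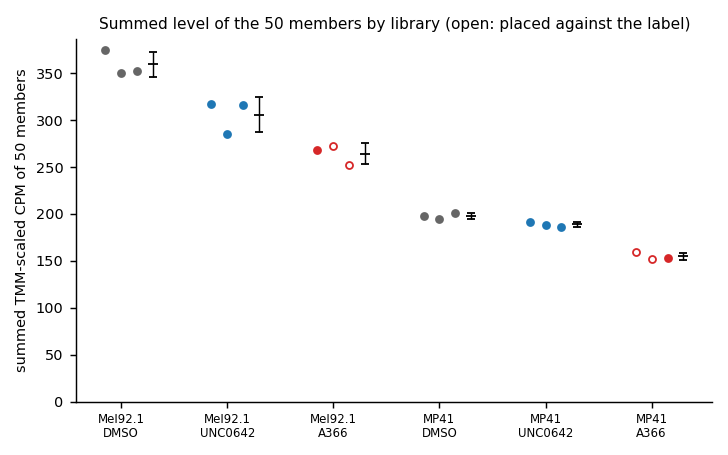
Summed level of the 50 members (CPM, axis from 0) in each library by group, with bars at the mean ± SD of 3 libraries and open points for the 4 libraries placed against their label. In either line every A366 library lies below every UNC0642 library, which in turn lies below every DMSO library, and all Mel92.1 libraries lie above all MP41 libraries.

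Added over the 50 members, the level in Mel92.1 was 375, 350 and 353 CPM with DMSO, 317, 285 and 316 CPM with UNC0642 and 269, 273 and 252 CPM with A366. In MP41 it was 198, 194 and 201 CPM with DMSO, 191, 189 and 187 CPM with UNC0642 and 153, 159 and 152 CPM with A366. The 3 groups of either line did not overlap, and their order was DMSO, UNC0642, A366 in both. The sum rests mostly on the highest members, and both inhibitors are set against the same DMSO libraries.

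The inhibitors were compared directly at the same dose and time in 2 pairs, 1 in each line, with p-values adjusted over all genes of the fit. In Mel92.1, 0 members differed between A366 and UNC0642 by edgeR (0.165% of all genes called), with a median of −0.14. At an unadjusted p under 0.05, 5 were lower with A366, while 1047 of all 14528 genes passed in either direction. DESeq2 called 1 (ZNF264) and voom 0 (1.47% of all genes with either). In MP41, 19 members were lower with A366 than with UNC0642 (22.0% of all genes called lower) and 2 higher (21.1% higher), with a median of −0.45. Without the 4 libraries 10 were lower (18.9% of all genes). ZNF530 differed most, by −1.46 (SE 0.24, adjusted p = 0.00076 by edgeR), and ZNF551 by −0.96 (adjusted p = 0.00163). ZNF256 had 3.22, 3.45 and 2.59 CPM with UNC0642 and 1.57, 1.41 and 1.77 CPM with A366, a difference of −0.99 (adjusted p = 0.00206 by edgeR). ZNF446 and ZNF497 were higher with A366, by 0.48 (adjusted p = 0.0332) and 0.88 (adjusted p = 0.0242) by edgeR. ZNF544 had 21.0, 24.1 and 21.2 CPM with UNC0642 and 18.2, 17.6 and 18.6 CPM with A366, a difference of −0.31 (adjusted p = 0.00989 by edgeR), although against DMSO (18.3, 19.6 and 19.9 CPM) it was not called with either inhibitor. ZNF329 differed by 0.0016 between the inhibitors in MP41, with a 95% interval of −0.29 to 0.30.

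Whether a member responded differently in the 2 lines was tested by an interaction term, in which the MP41 change is subtracted from the Mel92.1 change. For UNC0642, 0 of 48 members were called by edgeR (0.601% of all genes). At an unadjusted p under 0.05 there were 4, and 1546 of all 15799 genes tested. DESeq2 called ZNF583 (1.99% of all genes called) and voom 0 (1.54%). For A366, ZNF264 was called lower in Mel92.1 (8.67% of all genes were called lower) at −0.65 (SE 0.18, adjusted p = 0.0272 by edgeR). ZNF530 was called the other way (5.13% of all genes), at 1.00 (SE 0.31, adjusted p = 0.0422 by edgeR), since its fall in MP41 was the larger. In Mel92.1 ZNF530 had 5.67, 5.27 and 4.30 CPM with DMSO and 2.90, 3.79 and 2.98 CPM with A366, a difference of −0.66 (SE 0.22). Without the 4 libraries neither was called. The count of 2 went to 0 without any 1 of 7 libraries (3.86% to 9.08% of all genes called). It went to 5 without either of 2 others (21.7% and 23.2% of all genes). These libraries are named in the closing section. For the members named as falling in MP41 and not called in Mel92.1, other than these, a difference between the lines was not called by this test.

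With DMSO, most members were higher in Mel92.1 than in MP41. Of 48 members tested, 35 were higher (34.5% of all genes called higher) and 3 lower (34.8% of all genes called lower). The members' median was 1.05 against −0.022 over all genes. The largest differences upward were ZNF418 (3.42, adjusted p = 8.16e-05), ZNF814 (2.26, adjusted p = 7.8e-08), ZNF497 (2.22, adjusted p = 2.15e-07), ZNF71 (2.00, adjusted p = 1.44e-08) and ZNF606 (1.94, adjusted p = 5.13e-05), all by edgeR. ZNF418 had 2.89, 2.34 and 2.47 CPM in Mel92.1 and rested on 14, 13 and 5 counts in MP41. ZNF71 had 10.6, 11.5 and 12.4 CPM in Mel92.1 and 2.36, 3.65 and 2.59 CPM in MP41. The lines did not overlap in either gene.

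The 3 members that were lower in Mel92.1 were ZNF544, ZNF671 and ZNF586. ZNF544, at chr19:58228594-58277495 and 45.6 kb from the start of ZNF274, had 0.307, 0.133 and 0.309 CPM in Mel92.1, which were 15, 5 and 12 counts, and 18.3, 19.6 and 19.9 CPM in MP41, where it was the highest member per kb. The difference was −6.23 (SE 0.28, adjusted p = 1.79e-12 by edgeR), while its neighbour ZNF274 went the other way. ZNF671, on the minus strand at chr19:57719751-57727624 and known for promoter methylation in several cancers, had 2, 4 and 4 counts in Mel92.1 and 127, 90 and 153 counts in MP41, a difference of −5.02 (95% interval −6.80 to −3.25, adjusted p = 4.22e-05 by edgeR). With UNC0642 in Mel92.1 ZNF671 had 0, 0 and 29 counts, the 29 in replicate 3, and with A366 it had 1, 7 and 7 counts. ZNF586 had 3.83, 3.54 and 2.86 CPM in Mel92.1 and 5.00, 6.04 and 4.52 CPM in MP41, a difference of −0.60 (adjusted p = 0.0217 by edgeR).

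**Figure D4:**
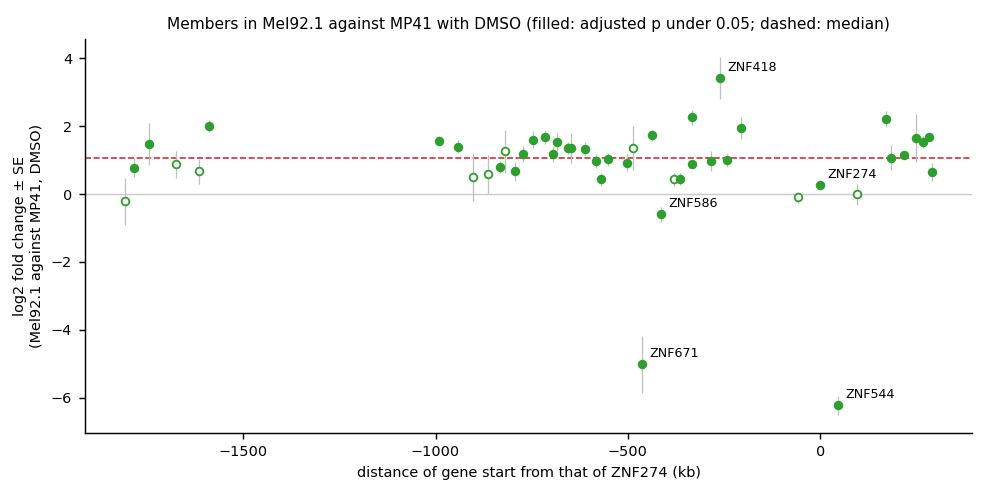
Log2 difference between Mel92.1 and MP41 with DMSO (point, with bars of 1 SE) of each of the 48 tested members by distance of its start from that of ZNF274 (kb), with filled points past the threshold. Of these 35 lie above 0 and 3 below, and ZNF544 (−6.23) and ZNF671 (−5.02) stand far under their neighbours.

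Per kb of the longest transcript, the highest members with DMSO were ZNF584 (7.21 CPM per kb), ZNF587 (4.75) and ZNF805 (4.29) in Mel92.1 and ZNF544 (4.69), ZNF584 (3.26) and ZNF274 (2.97) in MP41. ZNF584 had 17.6, 20.4 and 20.5 CPM in Mel92.1 and 8.70, 8.78 and 9.04 CPM in MP41. ZNF274 stood in the fifth place in Mel92.1 at 3.56 CPM per kb. At the other end, ZNF135 and ZNF835 were below the filter in both lines, with 0 to 4 and 0 to 5 counts per library, ZNF544 and ZNF671 were below it in Mel92.1, and ZNF132 and ZNF418 were below it in MP41. A change in them within those lines was not detectable at this depth.

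The longest transcripts of the members ran from 2038 to 12163 bases, with a median of 3926 against 2670.5 over all genes matched, and their GC content from 38.3% to 70.1%, with a median of 45.9% against 48.6%. Both properties moved with the change of all genes under A366 in MP41. There the other genes tested had median log2 changes of 0.31, 0.11, −0.08 and −0.29 in 4 equal bins from the shortest to the longest transcripts, and of −0.27, −0.09, 0.12 and 0.29 in 4 equal bins from the lowest to the highest GC. Members in these GC bins had medians of −0.94 (7 members), −0.57 (26 members), −0.47 (8 members) and 0.60 (5 members), so in the first 3 bins their medians lay below those of the other genes of like GC. Numbered ZNF genes elsewhere had −0.57, −0.41, −0.03 and 0.34 in the same bins. The 2 bins of shorter transcripts held 3 and 15 members at −0.79 and −0.18, and the others 16 and 12 members at −0.75 and −0.61. With an offset for GC and length, 18 members were called lower (17.7% of all genes) and 2 higher (2581 of 14453 genes), with a median of −0.46. ZNF211, ZNF264 and ZNF671, which the main fit did not call, were among these calls, and ZNF497 was not. In Mel92.1 the other genes had medians between −0.05 and 0.04 in every GC bin with A366, while the members had −0.73, −0.51, −0.47 and −0.05 and the numbered ZNF genes elsewhere −0.30, −0.16, −0.10 and −0.05. Over members, the change with A366 and GC had a Spearman correlation of 0.582 in MP41 and 0.474 in Mel92.1 (46 members each). Without the 5 members of highest GC it was 0.427 and 0.28 (41 members each). Over the other genes it was 0.459 and −0.235. These are descriptions over genes that share libraries and in part reads, and genes are not replicates.

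**Figure D5:**
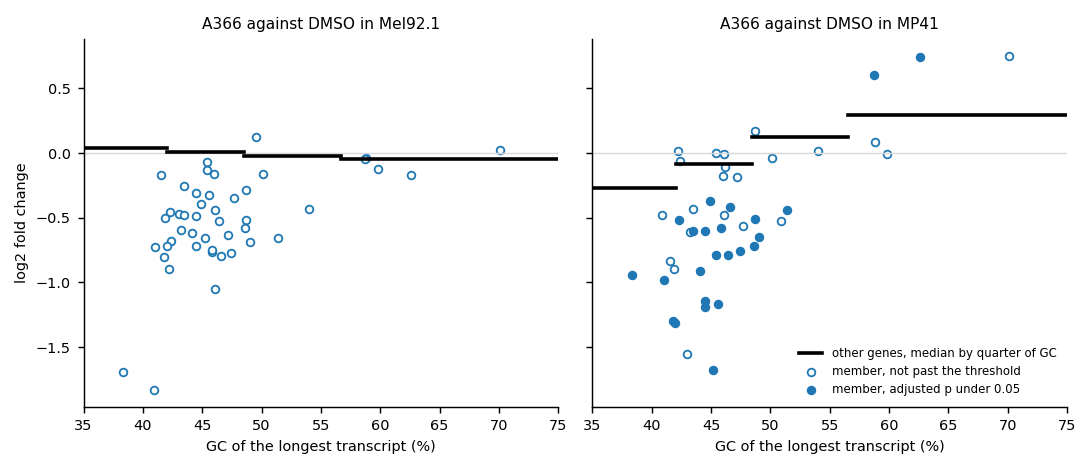
Log2 fold change of A366 against DMSO (vertical) of each tested member by GC content of its longest transcript (percent, horizontal), in a panel for each line, with steps for the median of the other genes in each of 4 equal bins of GC (the outer bins drawn from 35 to 75%). In Mel92.1 the other genes are level between −0.05 and 0.04 and most members lie below them, and in MP41 the steps go from −0.27 to 0.29.

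The members with and without the ETS letters in their promoter are set side by side as a description. With A366 in MP41, 13 of 23 tested members with the letters fell, with a median of −0.60. Of 19 without them 8 fell and 2 rose, with a median of −0.48. Over all genes 23.5% were called lower and 22.5% higher. In Mel92.1 the medians were −0.60 and −0.51. Between the lines with DMSO, 19 of 24 members with the letters were higher in Mel92.1 and 2 lower (median 1.22). Of 20 without them 14 were higher and 1 lower (median 1.11). Over all genes 34.5% were called higher and 34.8% lower.

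Genes beside the members give the setting of these values. Numbered ZNF genes elsewhere had a median of −0.40 with A366 in MP41, where 201 of 430 tested fell and 45 rose, and of −0.14 with A366, −0.11 with UNC0642 in Mel92.1 and −0.04 with UNC0642 in MP41. With DMSO they were as often lower as higher between the lines, 154 and 142 of 440, with a median of −0.01 where the members had 1.05. Other genes of the same stretch that are not zinc finger genes also lay low with A366 in Mel92.1, with a median of −0.48 over 10 tested. All of them were below 0, but 0 were called by edgeR (0.213% of all genes called). AURKC, C19orf18, FKBP1AP1, SMIM17 and VN1R1 among them had an SE of 0.765 to 0.97. In MP41 the median of the genes that are not zinc finger genes was 0.47 with A366 over 7 tested. Between the lines 8 of 11 were higher in Mel92.1 (34.5% of all genes) and 1 lower (34.8%), with a median of 1.82. The other zinc finger genes of the stretch had a median of −0.83 over 4 tested with A366 in Mel92.1, with 0 called.

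Of 17 partners of KRAB repression and of lysine 9 methylation, 3 rose with A366 in MP41 and 7 fell. Over all genes 22.5% were called higher there and 23.5% lower. TRIM28, the corepressor, rose by 0.23, EHMT2, the target of both compounds, by 0.23, and MPHOSPH8, which reads the trimethyl mark, by 0.37. Those that fell were ATF7IP, the partner of SETDB1 (−0.66), CBX5 (−0.42), ZNF644 (−0.50), SUV39H2 (−0.43), FAM208A (−0.52), PPHLN1 (−0.35) and MORC2 (−0.22). In Mel92.1 ATRX rose with both inhibitors, by 0.81 with UNC0642 (adjusted p = 0.00218 by edgeR) and 0.53 with A366 (adjusted p = 0.0499 by edgeR). MORC2 fell with A366 (−0.48, adjusted p = 0.0399 by edgeR). Neither A366 call was kept without the 4 libraries, which leaves 1 A366 library. With DMSO, 11 partners were higher in Mel92.1 than in MP41 (34.5% of all genes) and 5 lower (34.8%), with TRIM28 higher by 2.20. How these levels bear on the members was not tested.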

How the data were processed

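The members and the gene lists were chosen with earlier results of these data known. The authors deposited estimated counts per gene (expected counts, RSEM 1.2.15 with Bowtie2 2.1.0 on hg38 per the submitters' processing notes), not normalized for library size, for 26475 symbols; the paper's methods describe another pipeline, and the strand setting of counting is not given in the sources used here. All sample columns were used. Counts were rounded. Each line's 9 libraries were fitted with edgeR 4.0.16 in R 4.3.3 (filterByExpr, TMM, glmQLFit, glmQLFTest) with Benjamini-Hochberg adjustment, and the 18 libraries together for the line comparison and the interactions. The 4 A366 libraries were placed as in the study's own table. Alternatives were DESeq2 1.42.0, limma 3.58.1 voom, RLE factors, filters, GC and length offsets, the replicate number as a block, labels as given and leaving out libraries. The tests were tried on simulated data. Named members were ZNF274, up to 8 per direction and inhibitor comparison, up to 5 for the others, and the 3 highest per kb in each line. GENCODE release 29 found 23899 symbols by name, 703 by synonym and 14 by older symbol, and 1859 not. Tables and plots used Python 3.11.15 with pandas 2.3.3, scipy 1.17.1 and matplotlib 3.10.9.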

Additional observations from a re-analysis of the deposited data

Results flagged for a closer look

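For A366, 2 members differed in response between the cell lines by the interaction term, the MP41 change subtracted from the Mel92.1 change. They were 4.17% of the 48 members tested, where 13.8% of all genes were called. ZNF264 had −0.65 (SE 0.18, adjusted p = 0.0272 by edgeR), with all A366 libraries below all DMSO libraries in Mel92.1 and an overlap of the groups in MP41. ZNF530 had 1.00 (SE 0.31, adjusted p = 0.0422 by edgeR), with every A366 library below every DMSO library in both lines and the larger difference in MP41. Neither was called without the 4 libraries placed against their label. The count of members called was also 0 without any 1 of Mel92.1 DMSO replicates 2 and 3, MP41 DMSO replicates 1 and 2, and replicates 1 and 3 labelled Mel92.1 A366 and replicate 2 labelled MP41 A366. In these fits that leave out 1 library, 3.86% to 9.08% of all genes were called.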

How the results depend on the processing

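Leaving out the 4 libraries changed the members called from 24 to 11 (A366 in MP41), from 21 to 10 (A366 against UNC0642 in MP41) and from 2 to 0 (line difference for A366). With the libraries as labelled, 8, 8 and 22 members were called in the same comparisons (32.8%, 31.0% and 49.4% of all genes called). The members' median with A366 was then 0.295 in MP41 and −1.1 in Mel92.1. ZNF814 (1.49), ZNF776 (0.593), ZNF772 (0.426), ZNF417 (0.274), ZNF550 (0.247), ZNF587 (0.235), ZNF256 (0.154) and ZNF551 (0.0267) reversed in MP41. In that setting each A366 group holds 2 libraries that the study's table lists under the other line. DESeq2 and voom called 7 and 30 members with A366 and 3 and 4 with UNC0642 in Mel92.1. DESeq2 called 1 for UNC0642 in MP41, for A366 against UNC0642 in Mel92.1 and for the line difference with UNC0642, and voom called 20 for the line difference with A366 (58.7% of all genes) and gave a median of −0.355 for UNC0642 in Mel92.1. The GC and length offset gave 1 call each for A366 in Mel92.1 (0.362% of all genes), UNC0642 in Mel92.1 (1.3%) and A366 against UNC0642 in Mel92.1 (0.603%). It also gave 1 for the line difference with A366 (5.91%), and a median of −0.464 for A366 in MP41. No filter gave 1 call for that line difference (8.71% of all genes) and a median of −0.144 for UNC0642 in MP41. The causes were not tested.

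The replicate numbers did not pair the samples (median correlation of same-numbered libraries −0.127 in Mel92.1 and −0.0452 in MP41). The replicate block gave 21 calls for A366 in MP41 (42.0% of all genes) and 1 for the line difference with A366 (11.1%). With the GC and length offset it gave a median of −0.48. It then gave 13 calls for A366 against UNC0642 in MP41 (32.7%) and 1 for that line difference (4.67%). RLE factors moved the calls over all genes in the line difference with A366 from 810 higher of 2179 to 1011 of 2180.

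Leaving out 1 library at a time gave 15 to 27 calls for A366 in MP41, with medians of −0.591 to −0.484. The 15 came without the library labelled Mel92.1 A366 replicate 3 (33.5% of all genes). A366 against UNC0642 in MP41 gave 13 to 22 calls, the 13 without that library (32.2% of all genes). A366 in Mel92.1 gave 0 to 7 calls, the 7 without Mel92.1 UNC0642 replicate 1 (0.995% of all genes). UNC0642 in Mel92.1 gave 0 to 2 calls, with medians of −0.343 to −0.235. There 1 came without replicate 2 of that group (0.481% of all genes) and 2 without replicate 1 (1.24%). The line difference with A366 gave 0 to 5 calls. The 5 came without Mel92.1 UNC0642 replicate 1 (21.7% of all genes) or the library labelled Mel92.1 A366 replicate 2 (23.2%). That with UNC0642 gave 0 to 1, the 1 without Mel92.1 UNC0642 replicate 2 (1.09% of all genes). Medians for UNC0642 in MP41 ran from −0.151 to −0.0727. Depth limits ZNF135, ZNF835, ZNF544, ZNF671, ZNF418 and ZNF132 as given above.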
